A study of Rattus norvegicus with 10 samples.

Results

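The genes described here are the amino acid transporter families of rat kidney cortex, taken as every protein-coding gene of the Slc1a, Slc3a, Slc6a, Slc7a, Slc36a, Slc38a and Slc43a families except Slc6a6, Slc6a12 and Slc7a11. The rule found 58 genes among the 32545 of the deposited table. Of these, 37 had a mean of at least 0.5 FPKM (fragments per kilobase of gene, scaled to library size) over all libraries and were compared, and 21 lay below that level. The table covers 10 libraries of bulk kidney cortex from wild-type Dahl salt-sensitive rats (SS/JrHsdMcwi), an inbred strain that becomes hypertensive when fed salt. In 5 libraries the rats had eaten 4% NaCl together with 2% oxonic acid, an inhibitor of the urate-degrading enzyme uricase, for 3 weeks. In the other 5 libraries the diet was 4% NaCl with vehicle for the same 3 weeks. Both groups thus shared the high-salt diet, and both had been fed 0.4% NaCl before the switch, with telemeters implanted at 8 to 9 weeks of age. Male and female rats entered the design and sex is not labelled library by library, but the Y-linked genes Eif2s3y (34.6 to 48.7 FPKM) and Ddx3y (14.9 to 17.2 FPKM) were present in all 10 libraries, so each held RNA of male rats. No label ties a library to a rat, so the p-values measure the spread between these libraries, which may in part be technical.

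Amino acids filtered at the glomerulus are taken back almost completely by the proximal tubule. Apical carriers bring them into the cell with sodium or protons or by exchange, and basolateral exchangers and uniporters pass them to the blood. Several carriers are heterodimers, in which a heavy chain of the Slc3a family brings a light chain of the Slc7a family to the membrane. Loss of the heavy chain Slc3a1 or its light chain Slc7a9 causes cystinuria, loss of the basolateral light chain Slc7a7 causes lysinuric protein intolerance, and loss of the apical neutral carrier Slc6a19 causes Hartnup disorder in humans. The carriers differ along the tubule, Slc7a9 and Slc6a19 being known mainly from the convoluted part and Slc7a13 from the straight part (S3).

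The libraries held 1.45e+07 to 1.85e+07 reads in genes. Defining markers of proximal tubule were abundant in all of them, with summed levels of 5803 to 7189 FPKM over 11 genes with oxonic acid and 5008 to 6977 FPKM with vehicle, and 0 of the 11 passed between the diets. On the leading principal component over all genes, vehicle library 4 scored 39.8 and the other libraries -13.7 to 15.5. Inner medulla and thin limb markers were uneven. The urea transporter Slc14a2 stood at 16.0 FPKM in oxonic acid library 3 and at 0.505 FPKM or less in the others. Of the 5 genes of that list, 4 had a higher mean with oxonic acid and 1 a lower one. At an unadjusted p under 0.05, Aqp4 was higher (log2 difference 0.92) and Cldn4 lower (log2 difference -0.65). The injured tubule markers Havcr1, Lcn2, Spp1, Vcam1 and Krt20 summed to 663 to 1413 FPKM in the oxonic acid group and 1207 to 3079 FPKM in the vehicle group, with Krt20 at or near 0. Most of that sum was Spp1, at 637 to 1362 FPKM with oxonic acid and 1161 to 2986 FPKM with vehicle. The 4 tested genes of the list all had a lower mean, 3 of them at an unadjusted p under 0.05 (5.17% over all genes). The T cell list summed to 23.4 to 24.5 FPKM with oxonic acid, against 24.1 to 36.6 FPKM with vehicle, and the fibroblast list to 177 to 247 FPKM, against 216 to 309 FPKM. All 4 genes of each had a lower mean, 3 and 2 of them at an unadjusted p under 0.05. The collecting duct principal cell list summed to 146 to 264 FPKM with oxonic acid, against 126 to 175 FPKM with vehicle, with 4 of 4 higher, 3 at that level. The distal convoluted tubule list summed to 98.5 to 139 FPKM with oxonic acid, against 78.4 to 152 FPKM with vehicle, with 3 of 3 tested higher, 2 at that level. The 4 tested macrophage genes had a lower mean, 1 at that level. Of the intercalated cell list 2 genes were higher, 1 of them at that level, and 2 lower. The 3 tested endothelial genes were all higher, 1 at that level. Over all genes tested, 4.32% were higher and 5.17% lower at that level. The part of these differences in the results below was not tested, and in bulk tissue fewer cells of a type and less RNA per cell cannot be told apart. Library names fall into 3 runs of numbers, which the labels do not call batches: run A holds 3 oxonic acid libraries, run B 1 oxonic acid and 3 vehicle, and run C 1 oxonic acid and 2 vehicle.

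No amino acid transporter gene passed the test between the diets. In limma on log2(FPKM + 0.5), 0 of 37 members had an adjusted p under 0.05, the same share as in the background, where 0 of 14508 genes (0.0%) did. The mean was higher with oxonic acid for 27 members and lower for 10, while 51.8% of all genes tested had a higher mean. At an unadjusted p under 0.05, 5 members (13.5%) were higher, against 4.32% of all genes, and 0 were lower, against 5.17%; in either direction the share over all genes was 9.49%. The voom form of limma on recovered reads also called 0 members, with 6 higher and 0 lower at an unadjusted p under 0.05. The count of 5 higher members was 1 without oxonic acid library 1 or 2, 2 without vehicle library 2, 3 without oxonic acid library 3 or 4 or vehicle library 4 or 5, and 8 without oxonic acid library 5. It was 1 after rescaling every library to the same sum, a scaling that turned the split over all genes to 397 higher and 1125 lower, against 627 and 750 on the deposited scale. The median log2 difference was 0.09 over the 37 members and 0.01 over all genes tested. In 0 of the 37 tested members did the libraries of the diets separate without overlap, against 1.91% of all genes (0.944% higher and 0.965% lower with oxonic acid).

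**Figure D1:**
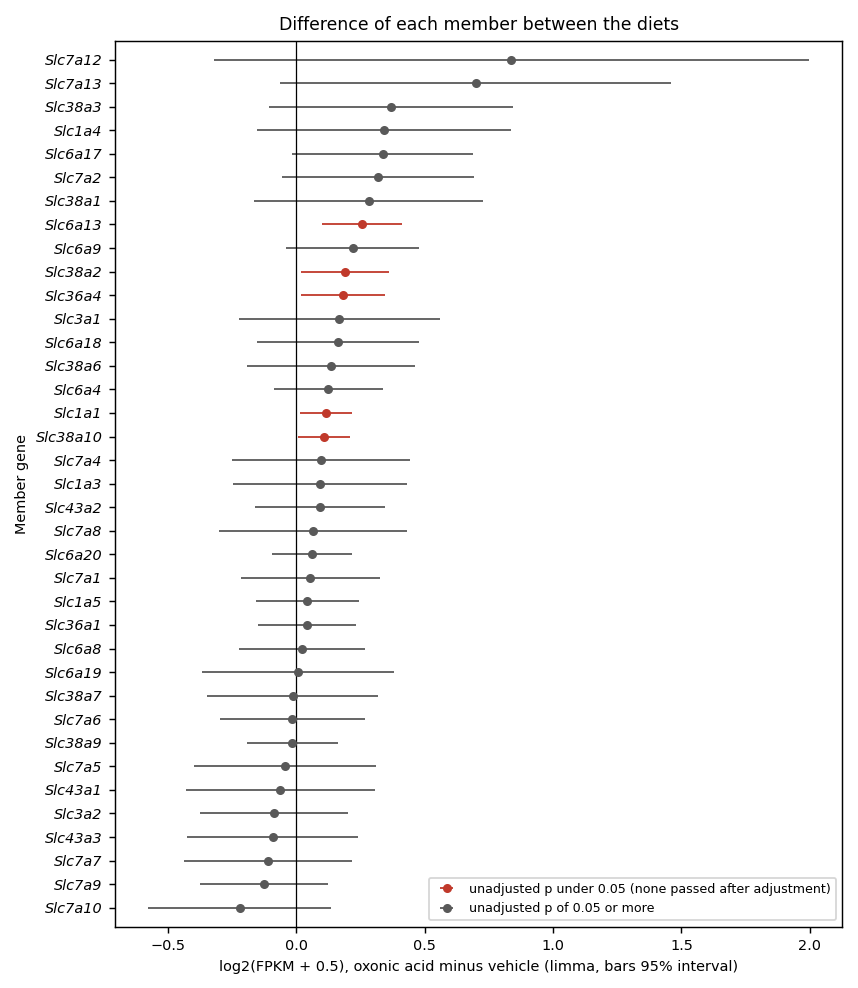
Log2 difference of each of the 37 members tested, oxonic acid minus vehicle, from limma on log2(FPKM + 0.5), with 95% intervals. The intervals of 5 members lie above 0 before adjustment, and the widest belong to Slc7a12 and Slc7a13.

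The levels of the members ranged over more than 3 orders of magnitude on the FPKM scale, which is per gene length. The heavy chain gene Slc3a1 (rBAT) came first with a mean of 1274 FPKM over the 10 libraries, and Slc7a13, a light chain that pairs with it and carries aspartate, glutamate and cystine, came second with 901 FPKM. Together they held 61.2% ± 5.52 of the summed FPKM of all 58 members with oxonic acid and 55.8% ± 10.0 with vehicle (SD, n = 5 each). A group of 5 genes followed with close means of 165 to 193 FPKM: the heavy chain Slc3a2 (4F2hc), the apical neutral carrier Slc6a18, the creatine carrier Slc6a8, and the light chains Slc7a7 and Slc7a9. Their ranges over the libraries overlapped, and the order of the 5 was not the same in every library. Next were the glutamate carrier Slc1a1 at 79.1 FPKM, the glutamine carrier Slc38a3 at 78.4 FPKM and Slc6a19 at 62.6 FPKM.

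**Figure D2:**
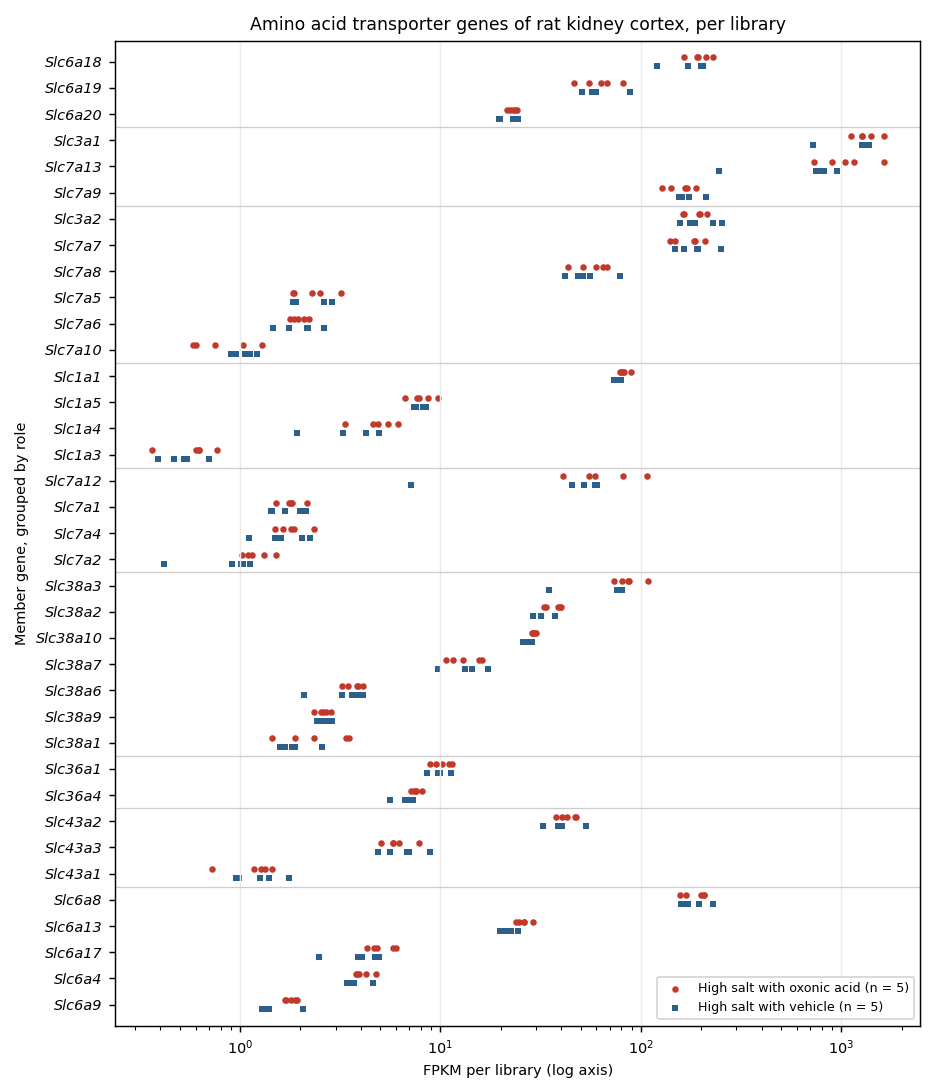
FPKM of the 37 members tested in each library, on a log axis, grouped by role and ordered by mean within a role. Points are single libraries, circles for high salt with oxonic acid and squares for high salt with vehicle (5 each). Slc3a1 and Slc7a13 lie above the rest, and vehicle library 5 is the detached low square of Slc3a1, Slc7a13, Slc7a12 and Slc38a3.

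Promoter letters are shown for the 4 tested members whose windows held letters of the HNF4 or HNF1 sites searched, carriers whose library values are described further on. Sequences are from RefSeq (build GRCr8), which held a promoter entry for 42 of the 58 members by symbol. Each line gives the 250 bases before the annotated start, 5′ to 3′ on the gene's strand, and capitals mark letters of known binding sites of HNF4 and HNF1, transcription factors of the proximal tubule. The letters searched on both strands were CAAAGTCCA for HNF4 and GTTAAT, the half-site of HNF1.
Slc3a1 (chr6:15394750-15394999, minus strand): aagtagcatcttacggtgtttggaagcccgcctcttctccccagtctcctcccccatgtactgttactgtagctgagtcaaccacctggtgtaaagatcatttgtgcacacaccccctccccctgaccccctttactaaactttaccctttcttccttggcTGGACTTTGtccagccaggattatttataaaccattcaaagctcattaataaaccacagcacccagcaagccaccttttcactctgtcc
Slc7a12 (chr2:88868104-88868353, minus strand): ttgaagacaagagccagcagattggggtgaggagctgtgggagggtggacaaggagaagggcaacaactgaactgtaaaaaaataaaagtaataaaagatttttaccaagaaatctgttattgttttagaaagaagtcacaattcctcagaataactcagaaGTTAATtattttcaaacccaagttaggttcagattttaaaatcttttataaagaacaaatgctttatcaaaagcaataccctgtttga
Slc6a19 (chr1:31414494-31414743, plus strand): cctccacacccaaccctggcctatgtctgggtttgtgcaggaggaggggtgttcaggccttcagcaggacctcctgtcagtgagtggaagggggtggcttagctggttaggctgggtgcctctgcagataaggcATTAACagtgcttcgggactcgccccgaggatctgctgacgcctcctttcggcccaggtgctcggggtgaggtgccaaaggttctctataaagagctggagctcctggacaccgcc
Slc6a18 (chr1:31436403-31436652, plus strand): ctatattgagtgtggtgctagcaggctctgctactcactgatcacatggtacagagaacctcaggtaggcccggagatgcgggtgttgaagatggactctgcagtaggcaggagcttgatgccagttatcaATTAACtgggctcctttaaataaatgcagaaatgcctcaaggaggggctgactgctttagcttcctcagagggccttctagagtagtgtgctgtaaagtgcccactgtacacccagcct

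The HNF4 letters occurred in 1 of the 42 member windows, that of Slc3a1, on the reverse strand 89 to 81 bases before the start, and in 0.338% of all 33469 windows of the same length. The HNF1 letters occurred in 4 member windows, against 6.45% of all: those of Slc7a12 (88 to 83 bases before the start), Slc6a19 (116 to 111), Slc6a18 (119 to 114) and Slc7a15. The letters TGATGNAA of the amino acid response element, bound by ATF4, occurred in the windows of Slc1a4, Slc38a1 and Slc7a1, against 3.40% of all. A match is a description of these letters and not of binding.

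The apical carriers of neutral amino acids and proline did not pass between the diets. Slc6a19 (B0AT1), the main apical carrier of neutral amino acids, measured 46.1, 67.5, 55.0, 63.0 and 81.7 FPKM with oxonic acid, against 56.7, 50.7, 56.8, 59.5 and 88.7 FPKM with vehicle. The groups lay over each other, with the highest value in vehicle library 5 and the lowest in oxonic acid library 1, and the log2 difference was 0.01 (SE 0.17, limma adjusted p = 0.995). Slc6a18 (B0AT3), a carrier of glycine and alanine that lies next to it on chromosome 1 in the deposited table (32221636 to 32236051, against 32199810 to 32220045 for Slc6a19, in a build not given in the sources used here), measured 229.7, 193, 192, 211 and 165 FPKM with oxonic acid, against 199, 199, 205, 173 and 120.3 FPKM with vehicle. Its order ran the other way, with oxonic acid library 1 highest and vehicle library 5 lowest (log2 difference 0.16, SE 0.14, adjusted p = 0.733). Without vehicle library 5 the difference was 0.0245. Slc6a20, which carries proline, was even across libraries, at 22.1, 23.0, 21.4, 24.1 and 23.6 FPKM in the oxonic acid group and 24.2, 19.8, 23.1, 23.1 and 19.5 FPKM in the vehicle group. Its log2 difference was 0.06 with a 95% interval of -0.09 to 0.22 (adjusted p = 0.797).

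Among the genes of cystine and dibasic amino acid uptake, the heavy chain Slc3a1 (ENSRNOG00000007006, chromosome 6, 8284878 to 8318674) measured 1630.2, 1268, 1262, 1401 and 1115 FPKM with oxonic acid, against 1340.5, 1272, 1348, 1383 and 719 FPKM with vehicle. Vehicle library 5 lay far below the rest, and oxonic acid library 1 was highest. The log2 difference of 0.17 (SE 0.18, adjusted p = 0.775) went to -0.01 without vehicle library 5. Slc7a13 (ENSRNOG00000024903, chromosome 5, 33784715 to 33805616) measured 1627, 1040.4, 1155, 895 and 733 FPKM with oxonic acid, against 817, 806, 948, 746 and 245 FPKM with vehicle. Here 4 of 5 oxonic acid libraries were above the vehicle median, yet the groups overlapped, and the log2 difference of 0.70 (SE 0.35) had a 95% interval of -0.06 to 1.46 (adjusted p = 0.547). Without vehicle library 5 it was 0.35, and within run B it was 0.07. Slc7a9, the light chain of the classical cystine carrier, measured 128, 166, 141, 169 and 188 FPKM with oxonic acid, against 161, 159.6, 156, 173 and 211 FPKM with vehicle (log2 difference -0.13, SE 0.11, adjusted p = 0.737). Slc7a9 was lowest in oxonic acid library 1 and highest in vehicle library 5, the reverse of Slc3a1 and Slc7a13.

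The balance of the chains that pair with Slc3a1 followed these libraries. Slc7a13 made up 92.7%, 86.2%, 89.2%, 84.1% and 79.6% of the summed FPKM of Slc7a13 and Slc7a9 with oxonic acid, and 83.5%, 83.5%, 85.9%, 81.1% and 53.7% with vehicle. The sum of both light chains was 0.928 ± 0.133 of the FPKM of Slc3a1 with oxonic acid and 0.721 ± 0.0738 with vehicle (SD, n = 5 each), with overlap between the groups. These ratios were formed after the values were seen and carry no test.

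The basolateral heterodimers showed no difference past the test. The heavy chain Slc3a2 measured 165, 195, 162, 197 and 213 FPKM with oxonic acid, against 186, 156, 176, 229 and 254 FPKM with vehicle (log2 difference -0.09, SE 0.13, adjusted p = 0.843). Slc7a7 (y+LAT1), which exports lysine and arginine in exchange for neutral amino acids and sodium, measured 141, 185, 147, 187 and 209.9 FPKM with oxonic acid, against 189.7, 147, 164, 192 and 250.4 FPKM with vehicle (log2 difference -0.11, SE 0.15, adjusted p = 0.826). In both genes vehicle library 5 was highest and the rest of the groups were mixed. Slc7a8 (LAT2), an exchanger of neutral amino acids, measured 43.5, 65.0, 51.3, 59.5 and 67.7 FPKM with oxonic acid, against 56.1, 42.0, 48.5, 51.4 and 79.1 FPKM with vehicle (log2 difference 0.07, SE 0.17, adjusted p = 0.915). Slc7a5 (LAT1), the light chain known from growing cells, was much lower, at 3.20, 1.85, 2.51, 2.29 and 1.83 FPKM in the oxonic acid group and 2.87, 2.88, 2.62, 1.90 and 1.85 FPKM in the vehicle group (log2 difference -0.05, SE 0.16, adjusted p = 0.941). Slc7a6 and Slc7a10 averaged 2.01 and 0.949 FPKM over all libraries, with log2 differences of -0.02 and -0.22. Slc7a10 overlaps Lrp3 by 204 bp on the opposite strand, and since it is not known whether reads were assigned by strand, its value is uncertain.

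The summed light chains of Slc3a2 (Slc7a5, Slc7a6, Slc7a7, Slc7a8 and Slc7a10) stood at 1.26 ± 0.0694 times the FPKM of Slc3a2 with oxonic acid and 1.25 ± 0.103 times with vehicle (SD, n = 5 each). Slc7a7 made up 72.2% to 74.4% of that light chain sum with oxonic acid and 75.0% to 77.4% with vehicle, ranges that did not overlap. This share was formed after the values were seen and has no test, and how often other such shares separate was not worked out.

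Glutamate and other carriers of the Slc1a family had 4 members tested, all with a higher mean with oxonic acid (51.8% over all genes), 1 of them at an unadjusted p under 0.05 (4.32% over all genes). Slc1a1 (EAAC1), the apical glutamate and aspartate carrier, measured 82.9, 89.3, 79.2, 81.5 and 78.8 FPKM with oxonic acid, against 77.0, 74.4, 75.4, 79.2 and 73.7 FPKM with vehicle. All 5 oxonic acid libraries were above the vehicle median, and vehicle library 4 reached into their range. The log2 difference was 0.11 (SE 0.05, unadjusted p = 0.0318, limma adjusted p = 0.488). Slc1a5 (ASCT2), which exchanges glutamine, was even, at 9.70, 6.68, 7.80, 8.63 and 7.64 FPKM in the oxonic acid group and 8.43, 8.15, 7.36, 7.44 and 7.58 FPKM in the vehicle group (log2 difference 0.04, SE 0.09, adjusted p = 0.898). Slc1a4 (ASCT1), a carrier of serine and alanine, ranged from 3.35 to 6.13 FPKM in the oxonic acid group and from 1.92 to 4.93 FPKM in the vehicle group (log2 difference 0.34, SE 0.23). Slc1a3, a glial glutamate carrier, averaged 0.560 FPKM.

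The sodium-coupled neutral carriers of the Slc38a family had 7 members tested, 2 of them higher at an unadjusted p under 0.05 (4.32% over all genes). Slc38a2 (SNAT2), an amino acid carrier induced by amino acid shortage and by hypertonicity in cultured cells, measured 38.8, 39.8, 39.5, 33.7 and 32.9 FPKM with oxonic acid, against 29.1, 31.9, 31.6, 37.1 and 31.9 FPKM with vehicle. Vehicle library 4 lay within the oxonic acid range and the other vehicle libraries below it. The log2 difference was 0.19 (SE 0.08, unadjusted p = 0.0326, adjusted p = 0.490), and within run C it was -0.06. Slc38a10 measured 29.8, 29.1, 29.0, 29.7 and 28.5 FPKM with oxonic acid, against 28.5, 26.5, 28.4, 26.4 and 25.7 FPKM with vehicle (log2 difference 0.11, SE 0.05, unadjusted p = 0.0373, adjusted p = 0.502). The groups met at 28.5 FPKM. Slc38a3 (SNAT3), which brings glutamine into proximal cells for ammonia production, measured 108, 86.9, 86.2, 80.2 and 73.5 FPKM with oxonic acid, against 78.0, 80.1, 80.3, 75.9 and 34.8 FPKM with vehicle. Vehicle library 5 was far below all others, and the log2 difference of 0.37 (SE 0.22, adjusted p = 0.599) was 0.13 without it. The lysosomal Slc38a9, an arginine sensor for mTORC1, averaged 2.61 FPKM and varied little, its highest library being 1.24 times its lowest. Slc38a6 overlaps Trmt5 on the opposite strand by 24 bp.

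The proton-coupled carriers of the Slc36a family had 2 members tested. Slc36a4, a carrier of proline and tryptophan, measured 7.54, 8.08, 7.37, 7.56 and 7.14 FPKM with oxonic acid, against 6.67, 6.68, 7.33, 5.57 and 6.79 FPKM with vehicle. Only vehicle library 3 reached the oxonic acid range, and the log2 difference was 0.18 (SE 0.07, unadjusted p = 0.0327, adjusted p = 0.490). Slc36a1, a lysosomal and apical carrier of small neutral amino acids, averaged 10.2 ± 1.07 FPKM in the oxonic acid group and 9.88 ± 0.958 FPKM in the vehicle group (SD, n = 5 each).

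The Slc43a family covers the facilitated carriers of large neutral amino acids Slc43a1 (LAT3) and Slc43a2 (LAT4, basolateral in the proximal tubule) and Slc43a3, which is known to carry purine nucleobases. Slc43a2 measured 37.5, 47.2, 40.6, 42.8 and 47.2 FPKM with oxonic acid, against 39.0, 32.5, 40.3, 38.8 and 53.0 FPKM with vehicle (log2 difference 0.09, SE 0.12, adjusted p = 0.812). Slc43a3 measured 5.79, 6.23, 5.78, 7.84 and 5.03 FPKM with oxonic acid, against 7.0, 8.86, 6.83, 4.89 and 5.61 FPKM with vehicle (log2 difference -0.09, SE 0.15, adjusted p = 0.860). The groups were mixed in both genes. Slc43a1 averaged 1.23 FPKM.

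Among the Slc6a genes that carry neurotransmitters or creatine, 5 of 14 were tested. Slc6a13 (GAT2), a carrier of GABA that also takes up taurine in mouse, had the smallest p of all members. It measured 28.9, 26.1, 23.8, 26.0 and 24.5 FPKM with oxonic acid, against 22.6, 21.1, 24.3, 20.1 and 19.9 FPKM with vehicle. All but vehicle library 3 lay below the oxonic acid range, and the log2 difference was 0.25 with a 95% interval of 0.10 to 0.41 (unadjusted p = 0.00423, limma adjusted p = 0.367). Slc6a8, the creatine carrier, measured 157, 207, 168, 199 and 206 FPKM with oxonic acid, against 195, 171, 173, 158 and 229 FPKM with vehicle (log2 difference 0.02, SE 0.11, adjusted p = 0.964). Slc6a17, a vesicular carrier of neutral amino acids in neurons, averaged 5.11 ± 0.740 FPKM in the oxonic acid group and 4.01 ± 0.970 FPKM in the vehicle group, and the glycine carrier Slc6a9 1.80 ± 0.111 and 1.49 ± 0.323 FPKM in oxonic acid and vehicle libraries (SD, n = 5 each). In each of these, all 5 oxonic acid libraries were above the vehicle median, with adjusted p of 0.536 and 0.571. The serotonin carrier Slc6a4 averaged 3.92 FPKM over all libraries.

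**Figure D3:**
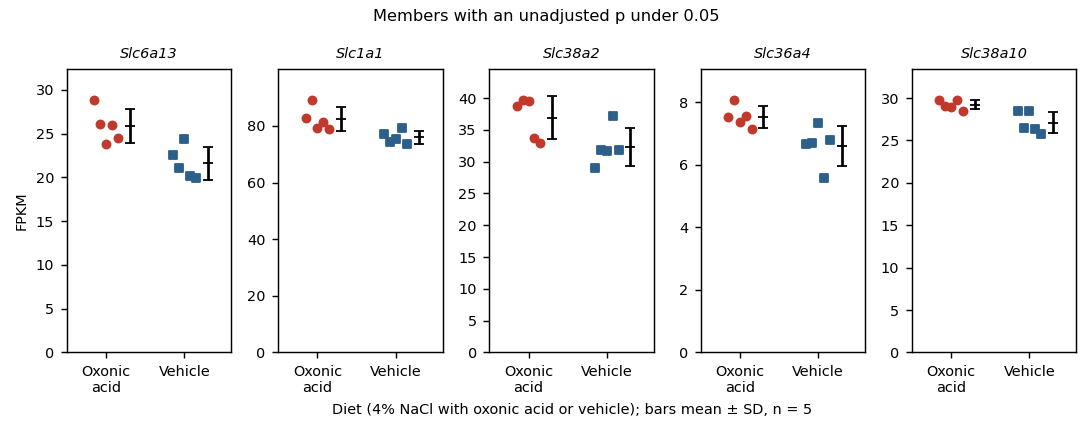
FPKM of the 5 members with an unadjusted p under 0.05, in each of 5 libraries with oxonic acid (circles) and 5 with vehicle (squares), with the mean ± SD beside them and axes from 0. Each pair of groups overlaps by at least 1 library, as for Slc38a10, where both reach 28.5 FPKM, and none passed after adjustment.

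The cationic amino acid carriers Slc7a1 and Slc7a2, which feed arginine to cells, were low, at 1.77 and 1.06 FPKM on average, with log2 differences of 0.05 and 0.32. Slc7a12 was much higher and is given although the naming rule did not take it, since its values were seen first. It measured 107, 59.0, 81.2, 55.0 and 41.1 FPKM with oxonic acid, against 58.7, 51.8, 60.5, 45.5 and 7.13 FPKM with vehicle. It varied more than any other tested member, its highest library being 15.1 times its lowest, and the log2 difference of 0.84 (SE 0.53, adjusted p = 0.620) was 0.27 without vehicle library 5 and -0.05 within run B.

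Of the 21 members below the level of testing, the highest was Slc38a11 with a mean of 0.299 FPKM. This group held the brain and retina glutamate carriers Slc1a2, Slc1a6 and Slc1a7, the dopamine and noradrenaline carriers Slc6a3 and Slc6a2, and the proton-coupled Slc36a2, a carrier of glycine and proline known from kidney of the newborn, with 6 reads in all 10 libraries together. Slc7a14 had 0 reads in every library, where 3 reads in the shallowest library would be 0.0736 FPKM. None of the 21 was compared in the main fit. The alternative with no filter on low values took in 56 members and called 0 of them. In Slc1a7 the libraries of the diets did not overlap, at 0.181 to 0.322 FPKM with oxonic acid and 0.0467 to 0.178 FPKM with vehicle, on 85 reads in all. The share of genes this low with such a separation was not worked out.

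The members fell into opposed sets library by library, most visibly in oxonic acid library 1 and vehicle library 5. Vehicle library 5 was the lowest of the 10 libraries in 12 of the 37 tested members and the highest in 9, and oxonic acid library 1 was the lowest in 5 and the highest in 12. Slc7a12, Slc7a13, Slc38a3, Slc3a1 and Slc6a18 were highest in oxonic acid library 1 and lowest in vehicle library 5. Slc6a19, Slc7a7 and Slc7a9 had the reverse order, and Slc3a2 and Slc7a8 were highest in vehicle library 5 and near their lowest in oxonic acid library 1. Some markers of the tubule segments moved with these values. The straight-part list summed to 669, 512, 524, 559 and 444 FPKM with oxonic acid and to 577, 536, 549, 589 and 294 FPKM with vehicle, highest and lowest in the same libraries as Slc7a13. The gamma-glutamyl transferase Ggt1 made up most of that sum, at 596 FPKM in oxonic acid library 1 and 256 FPKM in vehicle library 5. Of the other genes, the anion carrier Slc22a7 stood at 12.7 and 1.91 FPKM in the same libraries, and Slc5a1 at 18.3 and 10.0 FPKM. Slc22a13 stood there at 12.7 and 0.558 FPKM, while Slc5a8 and Cyp7b1 varied little. The sum of the 4 thick ascending limb markers had the same ends, at 2726, 1463, 1979, 1897 and 1258 FPKM with oxonic acid and 1648, 1407, 1631, 1796 and 1085 FPKM with vehicle. Most of it was Umod, at 2342 FPKM in oxonic acid library 1 and 949 FPKM in vehicle library 5. Kcnj1 was lowest in vehicle library 2, at 54.5 FPKM, and Cldn16 in oxonic acid library 5, at 10.2 FPKM. The glucose carrier Slc5a2 of the convoluted part ran the other way, at 116 FPKM in oxonic acid library 1 and 225 FPKM in vehicle library 5. In the same libraries Slc5a12 stood at 56.7 and 97.5 FPKM, and Slc4a4 at 78.9 and 135 FPKM. Gatm, Slc22a8, Slc22a6 and Slc34a1 were also higher in vehicle library 5 than in oxonic acid library 1. The proximal list did not move as a whole, however. Lrp2 stood at 258 and 233 FPKM, Miox at 1105 and 876 FPKM, and Hnf4a at 207 and 204 FPKM in the same libraries. The list sum was highest in oxonic acid library 2 and lowest in vehicle library 2. The part of these markers in the differences of these members was not tested.

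**Figure D4:**
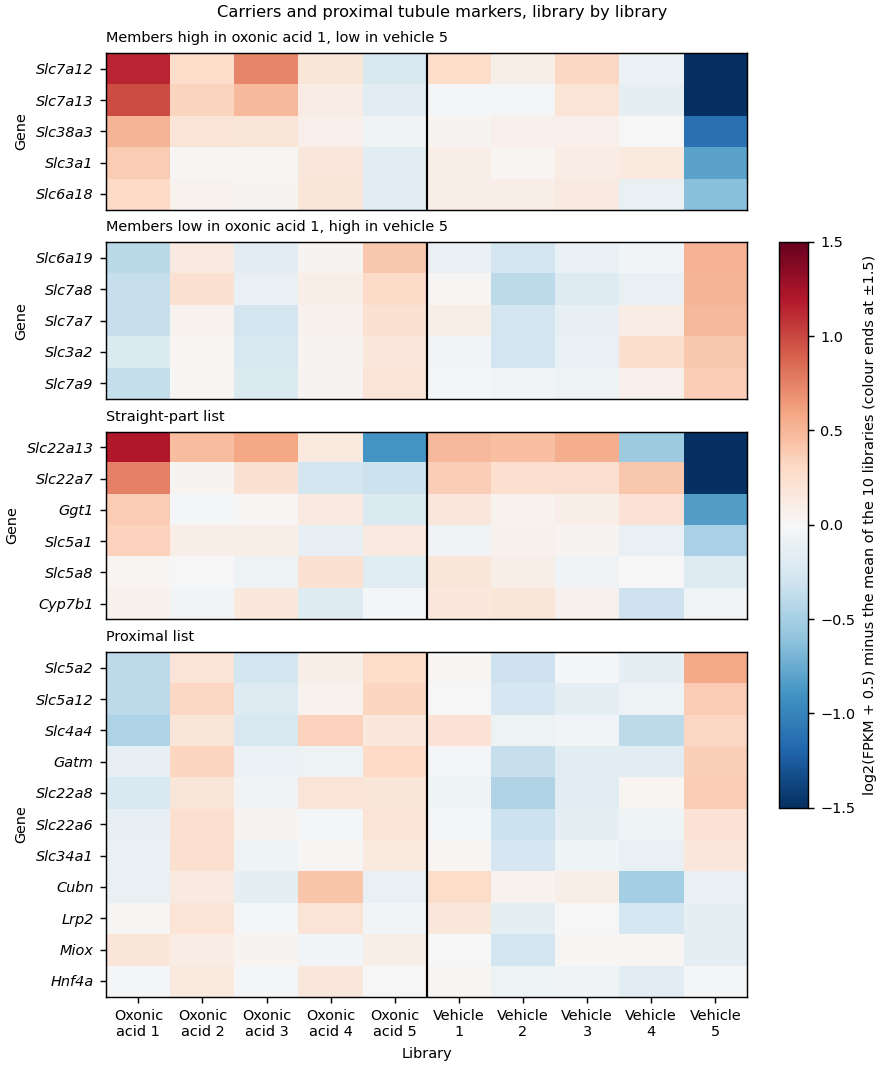
Heat map of log2(FPKM + 0.5) minus the mean of the 10 libraries, for 10 members arranged after their values were seen and for the straight-part and proximal marker lists, with the 5 oxonic acid libraries left of the line and the 5 vehicle libraries right of it. The colour scale ends at ±1.5, and the opposed values of oxonic acid library 1 and vehicle library 5 recur in the members and in markers such as Slc22a7 and Slc5a2.

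Genes whose products meet in the membrane were compared over the 10 libraries in 8 pairs, on log2(FPKM + 0.5), with p from permutation tests adjusted over the 8, of which 7 are given. Slc3a2 and Slc7a7 varied together, with Pearson r = 0.94 (permutation p = 1e-04, adjusted p = 8e-04) and Spearman rho = 0.92 (permutation p = 7.2e-04, adjusted p = 0.00576). Without the 2 libraries farthest from the median of Slc3a2, vehicle libraries 2 and 5, r was 0.88 (permutation p = 0.00414). Slc3a2 and Slc7a8 had r = 0.81 (permutation p = 0.00537, adjusted 0.00741) and rho = 0.83 (permutation p = 0.00463, adjusted 0.0185), and r = 0.56 without those 2 libraries, where it no longer passed (permutation p = 0.145). Slc3a2 and Slc7a5 varied in opposite directions, with r = -0.82 (permutation p = 0.00412, adjusted 0.00741), rho = -0.81 (permutation p = 0.00738, adjusted 0.0197) and r = -0.79 without the same 2 libraries (permutation p = 0.0209, adjusted 0.0837).

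For Slc3a1 the relations rested on 2 libraries. With Slc7a13 it had r = 0.92 (permutation p = 0.00522, adjusted 0.00741) but rho = 0.47 (permutation p = 0.179, adjusted 0.235). With Slc7a9 it had r = -0.80 (permutation p = 0.00556, adjusted 0.00741) and rho = -0.44 (permutation p = 0.206, adjusted 0.235). Without oxonic acid library 1 and vehicle library 5, r was 0.11 with Slc7a13 and -0.30 with Slc7a9, and neither passed (permutation p = 0.797 and 0.457). Slc6a19 needs collectrin (Tmem27 in the table) to reach the apical membrane in kidney. Its r with Tmem27 was 0.72 (permutation p = 0.0174, adjusted 0.0199), with rho = 0.54 (permutation p = 0.116, adjusted 0.185), and 0.51 without oxonic acid library 5 and vehicle library 5, where it no longer passed (permutation p = 0.198). Slc6a20 and Tmem27 had no relation that passed (r = -0.02, permutation p = 0.942, adjusted 0.942, rho = -0.14, permutation p = 0.703, adjusted 0.703, and r = 0.01 without vehicle libraries 2 and 5, permutation p = 0.977). The runs of library numbers hold 3, 4 and 3 libraries, too few for r within a run, and all pairs share library scaling.

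**Figure D5:**
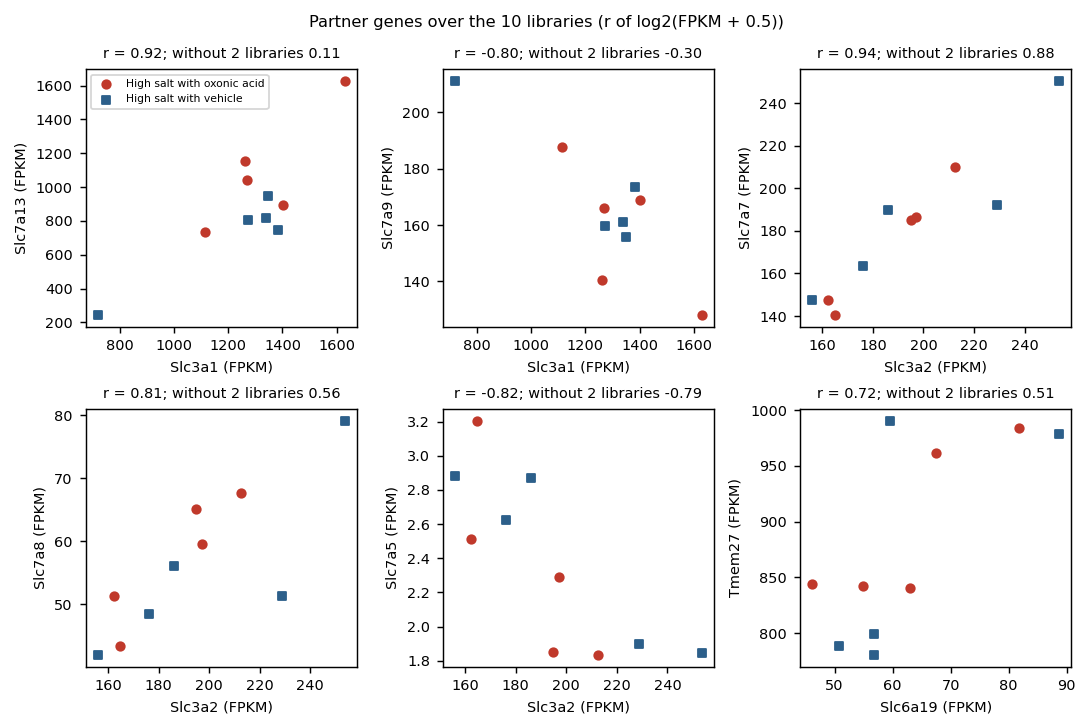
FPKM of 6 partner pairs in each library, circles for high salt with oxonic acid and squares for high salt with vehicle, with Pearson r on the log2 scale over all 10 libraries and without the 2 libraries farthest from the median of the gene on the x axis. Slc3a2 and Slc7a7 keep r = 0.88 without them, and Slc3a1 and Slc7a13 drop to 0.11.

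Genes around these carriers gave 0 calls as well. All 7 apical partners and scaffolds in the table were tested, 4 with a higher and 3 with a lower mean (median log2 difference 0.01). Tmem27 averaged 895 ± 71.9 FPKM in the oxonic acid group and 867 ± 107 FPKM in the vehicle group (SD, n = 5 each). Of 6 peptide and aromatic amino acid carriers, 5 had a higher mean with oxonic acid and 1 a lower one (median 0.11), and 0 had an unadjusted p under 0.05. The peptide carrier Slc15a2, known from the straight part, measured 64.0 FPKM in oxonic acid library 1 and 18.5 FPKM in vehicle library 5, its highest and lowest.

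Of 16 genes of the amino acid response, the program driven by the kinase Gcn2 and by ATF4, 11 had a lower mean with oxonic acid and 5 a higher one (median log2 difference -0.02), with 2 lower at an unadjusted p under 0.05 (5.17% over all genes). Cebpb averaged 46.0 ± 6.84 FPKM in the oxonic acid group and 59.7 ± 10.3 FPKM in the vehicle group, and Atf3 3.44 ± 1.19 FPKM in the oxonic acid group and 6.07 ± 2.87 FPKM in the vehicle group (SD, n = 5 each), both also known from general stress responses and both highest in vehicle library 4. Their adjusted p were 0.414 and 0.510, and the log2 difference of Cebpb was -0.37 over all libraries and 0.04 within run B. Of 17 tested genes of amino acid sensing by mTORC1, 10 had a higher mean, 3 of them at an unadjusted p under 0.05, and 7 a lower mean, 1 of them at that level, where the shares over all genes were 4.32% higher and 5.17% lower. The inhibitors Tsc1 and Tsc2 averaged 7.45 ± 0.843 and 8.61 ± 0.367 FPKM with oxonic acid, against 6.01 ± 0.690 and 7.42 ± 0.981 FPKM with vehicle (SD, n = 5 each). The mTORC1 subunit Rptor averaged 7.55 FPKM in the oxonic acid group and 6.73 FPKM in the vehicle group, and the Ragulator subunit Lamtor1 82.0 and 87.4 FPKM in oxonic acid and vehicle libraries. The groups did not overlap for Tsc2, Rptor and Lamtor1, against 1.91% of all genes tested, and adjusted p ran from 0.405 to 0.507 for the 4 genes named.

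Of 12 tested genes of glutamine and ammonia metabolism, 6 had a higher and 6 a lower mean (median log2 difference -0.01). Ogdh of the citric acid cycle averaged 48.1 ± 3.93 FPKM in the oxonic acid group and 41.7 ± 4.25 FPKM in the vehicle group, and the mitochondrial aspartate-glutamate carrier Slc25a12 17.7 ± 0.955 FPKM in the oxonic acid group and 15.4 ± 1.98 FPKM in the vehicle group (SD, n = 5 each), with adjusted p of 0.469 and 0.501. Both had an unadjusted p under 0.05, and their groups overlapped.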

How the data were processed

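Poly-A RNA of kidney cortex was sequenced in 10 libraries. The authors deposited 1 table of FPKM per gene. The submitters' processing notes list, with no roles, featureCounts 1.5.0-p3, StringTie 1.3.3b, HISAT2 2.0.5 and fastp; no source used here states the genome build or the annotation. The labels describe both directional and non-directional libraries and do not say which was made.

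Groups came from the treatment label. From the deposited FPKM, log2(FPKM + 0.5) was compared as oxonic acid minus vehicle in limma 3.58.1 (R 4.3.3; lmFit, eBayes with trend, two-sided) over all 14508 genes with a mean of at least 0.5 FPKM, with Benjamini-Hochberg adjustment over all of them and a threshold of 0.05. Differences are on that scale, which understates the change of low genes. FPKM times gene length gave whole reads for 100% of values (tolerance 0.01), so depth is known: 1.45e+07 to 1.85e+07 reads in genes, 1 read being 0.0244 to 0.0320 FPKM at the median gene length of 2157 bp. Floors of 3 reads cover counting error only. No pair of libraries agreed within sampling noise (lowest chi-square per degree of freedom 5.17). Correlations used 100000 permutations, two-sided (Python 3.11.15, SciPy 1.17.1).

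The members and lists were chosen with earlier results of these data known. Values per library are printed for 16 members picked for their roles, any other among the 10 highest, and any other with an unadjusted p under 0.05; in the associated lists, genes with such a p are named, at most 4 a list. Slc7a12 and the example genes outside this rule were chosen after their values were seen. Alternatives were other pseudocounts, filters and scalings, voom on the recovered reads, array weights, a replicate block, the library-number runs, and leaving out each library. The fit was tested on simulated data. Results that need items withheld for evaluation are not reported here.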

Additional observations from a re-analysis of the deposited data

Results flagged for a closer look

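Vehicle library 5 lay far from the other vehicle libraries in 5 of the 21 members examined there, and no library did so in the 21 sets of oxonic acid libraries; chance flags about 1 in 20 sets. Slc7a12 among the 5 was added after its values were seen. Slc3a1 stood at 719 FPKM there, against 1272 to 1383 FPKM in the other vehicle libraries. Slc7a13 stood at 245 FPKM, against 746 to 948 FPKM. Slc38a3 stood at 34.8 FPKM, against 75.9 to 80.3 FPKM. Slc7a12 stood at 7.13 FPKM, against 45.5 to 60.5 FPKM. Slc6a19 was high, at 88.7 FPKM, against 50.7 to 59.5 FPKM. The 5 values come from 1 library and are not independent of each other.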

How the results depend on the processing

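No member passed at an adjusted p of 0.05 in any of the 20 alternatives fitted. Of the 21 named members 11 kept their direction in every one, the differences within runs not counted. Over all genes 1 was called with array weights, and 0 to 1 with each library left out. The 5 members higher at an unadjusted p under 0.05 became 1 after rescaling to equal sums, 1 with the library-number runs as a factor, 3 with array weights, 3 without vehicle library 4 and oxonic acid library 3 together (chosen after seeing the data), and 1 to 8 with each library left out. The replicate numbers do not pair the libraries (same-number correlations -0.01 to 0.20), and the fit with the replicate block gave 6 such members and 0 calls.

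Small differences turned sign. Rescaling gave -0.0185 for Slc6a19 and -0.00278 for Slc6a8. The runs as a factor gave 0.0347 for Slc7a9, 0.0176 for Slc3a2, 0.0592 for Slc7a7 and 0.00610 for Slc43a3, and Slc3a2 was 0.0133 without vehicle library 4 and oxonic acid library 3. Within run B, Slc7a9 was 0.0895, Slc3a2 0.193 and Slc7a7 0.169. There Slc7a12, at 0.84 over all libraries, was -0.0482, and within run C Slc38a2 was -0.0635. With each library left out, Slc6a19 ran from -0.0956 to 0.138, Slc3a1 from -0.0119 to 0.229, Slc3a2 from -0.172 to 0.00255, Slc7a8 from -0.0246 to 0.202, Slc7a5 from -0.147 to 0.0191, Slc1a5 from -0.0223 to 0.104, Slc43a3 from -0.188 to 0.0114 and Slc6a8 from -0.0311 to 0.101. The median of glutamine and ammonia genes was 0.0632 with the runs as a factor and 0.145 within run B, and that of the mTORC1 genes 0.00205 to 0.0730 with each library left out. The cause was not tested.

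Without the 2 libraries farthest from the median of the first gene, r was -0.30 for Slc3a1 and Slc7a9, 0.11 for Slc3a1 and Slc7a13, 0.56 for Slc3a2 and Slc7a8, -0.79 for Slc3a2 and Slc7a5, 0.51 for Slc6a19 and Tmem27, and 0.0122 for Slc6a20 and Tmem27. With each library left out, the same pairs ran from -0.86 to -0.67, 0.65 to 0.95, 0.68 to 0.95, -0.87 to -0.80, 0.65 to 0.83 and -0.30 to 0.30. With 5 libraries a diet, a median SE of 0.15 over the members limits what could be detected.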
